A study of Mus musculus with 11 samples.

Results

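The 10 genes Car6, Calcb, Dach2, Taf7l, Syce2, Slc6a15, Olfm1, Myzap, Bnc1 and Prss23, most of them best known from other tissues or the germ line, were followed in the mouse tumour line RT101 as it grew attached and in soft agar. In agar, 5 of them lost signal and 5 kept or gained it. Car6, Calcb and Taf7l fell to the range of the comparison cells, Dach2 and Slc6a15 fell but stayed above it, Syce2 and Bnc1 hardly moved, and Prss23, Olfm1 and Myzap rose. The genes were taken by exact gene symbol: they are 10 of 12393 measured genes and hold 13 of 22690 probe sets, 3 for Olfm1, 2 for Prss23 and 1 for each of the others. The members were chosen by their signals in RT101 monolayers against bFGF-JB6 monolayers and in RT101 colonies against RT101 monolayers, so those contrasts are given for them as a description, without a test.

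JB6 is a mouse line derived from epidermis and is used to study growth without attachment. The bFGF-JB6 groups are JB6 clone 41-5A cells with basic fibroblast growth factor (bFGF), at 10 ng/ml in agar; for the monolayers, also labelled as bFGF-treated, no dose or time is given. RT101 is a tumour variant of JB6 and received no treatment, so the line and the growth factor cannot be told apart between them. Cells grew in minimal essential medium with serum, colonies were taken from soft agar on day 7, and the 11 arrays comprised 3 bFGF-JB6 monolayer, 3 bFGF-JB6 colony, 2 RT101 monolayer and 3 RT101 colony samples. Whether samples of a group came from separate cultures is not stated in the labels. The p-values thus measure only how far these samples spread, which can be a technical spread.

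Signals are log2 values, on which a difference of 1 is 2-fold. Array medians lay between 5.82 and 5.95 and lower quartiles between 3.78 and 3.91 (below these quartiles signals are close to the floor, and folds are understated). Within a group, arrays correlated at 0.989 or more. The Gapdh control probes stood higher at the 3' than at the 5' end by 0.19 on replicate 1 of the bFGF-JB6 monolayers and by 0.35 on replicate 3 of the bFGF-JB6 colonies; on the other 9 arrays this difference lay between -0.08 and -0.01. The 2 arrays with the raised 3' signal are bFGF-JB6 arrays, whereas genes were counted as lost or kept in agar from RT101 arrays only. Leaving those 2 out thus could not change the counts of 5 lost and 5 kept, and was no test of them. In RNA from whole cultures, fewer cells expressing a gene and less RNA per cell cannot be told apart.

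Genes that are silent outside a few tissues or the germ line are kept off in other cells by the absence of their activators and by repressive chromatin. DNA methylation at CG-rich promoters holds many germ-line genes silent in body cells. Cancer cell lines often express some of these genes, which is called ectopic expression. The tissue restriction itself was not measured here; only JB6-derived cells were on the arrays.

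The promoters of the 10 genes range from poor to very rich in CG, the dinucleotide at which mammalian DNA is methylated. RefSeq promoter sequences on GRCm38.p6, from 250 bases before to 50 after a start, matched 8 genes; Calcb and Slc6a15 had no entry. Over all 32851 promoters of that table the median was 7 CG per 300 bases, with quartiles of 3 and 20. The Car6 window held 4, that of Taf7l 17, that of Myzap 11 and that of Bnc1 50. Dach2 held 15 and 16 at its 2 starts, Syce2 19 and 33, Olfm1 32 and 43, and the 7 starts of Prss23 held 4 to 41. The 150 bases before the first start are shown for the CG-poor and the CG-rich extreme, Car6 and Bnc1, and for the 2 germ-line genes, Taf7l and Syce2. They read 5′ to 3′ along the gene, with each CG in capitals.
Car6, chr4:150201136-150201285, minus strand: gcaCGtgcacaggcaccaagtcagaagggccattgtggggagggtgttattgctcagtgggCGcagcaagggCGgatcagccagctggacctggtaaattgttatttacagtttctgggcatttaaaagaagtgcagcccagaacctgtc
Taf7l, chrX:134476491-134476640, minus strand: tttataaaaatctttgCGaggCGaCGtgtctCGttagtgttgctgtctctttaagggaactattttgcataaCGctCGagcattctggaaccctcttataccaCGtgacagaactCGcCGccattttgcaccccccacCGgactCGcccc
Syce2, chr8:84871961-84872110, plus strand: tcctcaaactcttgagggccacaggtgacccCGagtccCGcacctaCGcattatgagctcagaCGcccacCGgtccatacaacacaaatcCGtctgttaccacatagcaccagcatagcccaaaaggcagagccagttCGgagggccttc
Bnc1, chr7:81992300-81992449, minus strand: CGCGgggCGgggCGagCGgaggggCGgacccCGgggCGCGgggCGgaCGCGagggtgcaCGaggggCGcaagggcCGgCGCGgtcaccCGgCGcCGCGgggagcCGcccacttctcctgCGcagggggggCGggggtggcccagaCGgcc
The stretches show 3 CG for Car6, 11 for Taf7l, 7 for Syce2 and 25 for Bnc1. Car6, lost in agar, is CG-poor and Bnc1, kept, is CG-rich, but Taf7l, also lost, had 17 CG and the first Syce2 start 19, so these windows put 1 lost and 1 kept gene close together. Methylation was not measured. A search of both strands for 6 motifs found the E-box CACGTG, a palindrome, in the windows of Car6, Taf7l and Syce2 (its second start), that is in 3 of the 8 genes and 3 of their 17 windows, against 7.15% of all promoters. The AP-1 motif TGANTCA was in Taf7l and Prss23 (7.81% of all promoters), and the cyclic AMP motif TGACGTCA was in 0 of 8 (1.79%). The composite motif TGATGNAA was in Myzap (3.97%), TATAAA in Dach2 and Taf7l (13.6%), and the TEAD motif GGAATG in Dach2 and Syce2 (14.7%). Such matches describe letters in the window, not bound sites.

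Car6 (probe set 1421001_a_at) encodes a secreted carbonic anhydrase of saliva. Its log2 signals were 10.97 and 10.85 in RT101 monolayers and 3.89, 3.94 and 3.96 in RT101 colonies, beside 4.03, 4.07 and 4.14 in bFGF-JB6 monolayers and 3.72, 3.99 and 4.24 in bFGF-JB6 colonies. The gene was thus high on the 2 RT101 monolayer arrays and near the lower quartile on the other 9. Its RT101 group means of 10.91 ± 0.09 (SD, n = 2) and 3.93 ± 0.04 (SD, n = 3) differ by -6.99 (SE 0.13), which is 127-fold, so that colonies had 0.789% of the monolayer signal. In monolayers RT101 stood 114-fold above bFGF-JB6, and in colonies the arrays of both lines overlapped (difference -0.05).

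Calcb (1422639_at) encodes the beta form of calcitonin gene-related peptide, a neuropeptide that widens blood vessels. Its signals were 9.33 and 9.07 in RT101 monolayers and 2.94, 3.21 and 3.06 in RT101 colonies, beside 2.84, 2.94 and 2.93 in bFGF-JB6 monolayers and 2.70, 2.89 and 3.06 in bFGF-JB6 colonies. It had the Car6 pattern, high only on both RT101 monolayer arrays. The change in agar was -6.13 (SE 0.12), or 70.1-fold, leaving 1.43% of the signal; the colonies of both lines overlapped. A second gene, Calca, encodes a very similar peptide, and whether its transcript is read by this probe set was not tested.

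Taf7l (1420433_at) encodes the germ-cell counterpart of the general transcription factor subunit TAF7 and acts in male germ cells and in fat cells. Signals in RT101 monolayers were 6.05 and 6.09, just above the array medians, and those in RT101 colonies were 2.68, 2.87 and 2.91. bFGF-JB6 monolayers gave 2.69, 2.83 and 2.62 and bFGF-JB6 colonies 3.14, 3.0 and 3.03. Only the RT101 monolayers stood clear of the bottom of the scale. The RT101 change was -3.25 (SE 0.10), 9.52-fold, and RT101 colonies ended slightly under bFGF-JB6 colonies (difference -0.24, no overlap).

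Dach2 (1449823_at) encodes a nuclear cofactor in the developmental network of Pax and Eya factors and is known from limb and muscle. Its signals were 8.30 and 8.38 in RT101 monolayers and 5.09, 4.92 and 4.68 in RT101 colonies, a change of -3.45 (SE 0.13) or 10.9-fold. In bFGF-JB6 monolayers they were 2.79, 3.03 and 3.04, and in bFGF-JB6 colonies 2.65, 2.82 and 2.85. The loss was partial: no RT101 colony array overlapped a bFGF-JB6 array, and RT101 colonies stood 4.34-fold above bFGF-JB6 colonies.

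Slc6a15 (1426712_at) encodes a sodium-driven transporter of neutral amino acids found mainly in brain. Signals were 6.10 and 6.53 in RT101 monolayers and 5.23, 5.16 and 5.35 in RT101 colonies. They were 2.49, 2.53 and 2.57 in bFGF-JB6 monolayers and 2.28, 2.51 and 2.60 in bFGF-JB6 colonies. The fall in agar, -1.06 (SE 0.13), was the smallest of the 5 and only just past the change of 1 that defined a loss; without RT101 monolayer replicate 2 the gene no longer met it. A loss also required colony arrays below their medians. With the lower quartile as that bound, 2 of the 10 genes, Calcb and Taf7l, counted as lost. Car6 did not, as it lay at percentiles 26.2 to 26.8 of the RT101 colony arrays. Slc6a15 in RT101 colonies still stood 6.9-fold above bFGF-JB6 colonies.

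**Figure D1:**
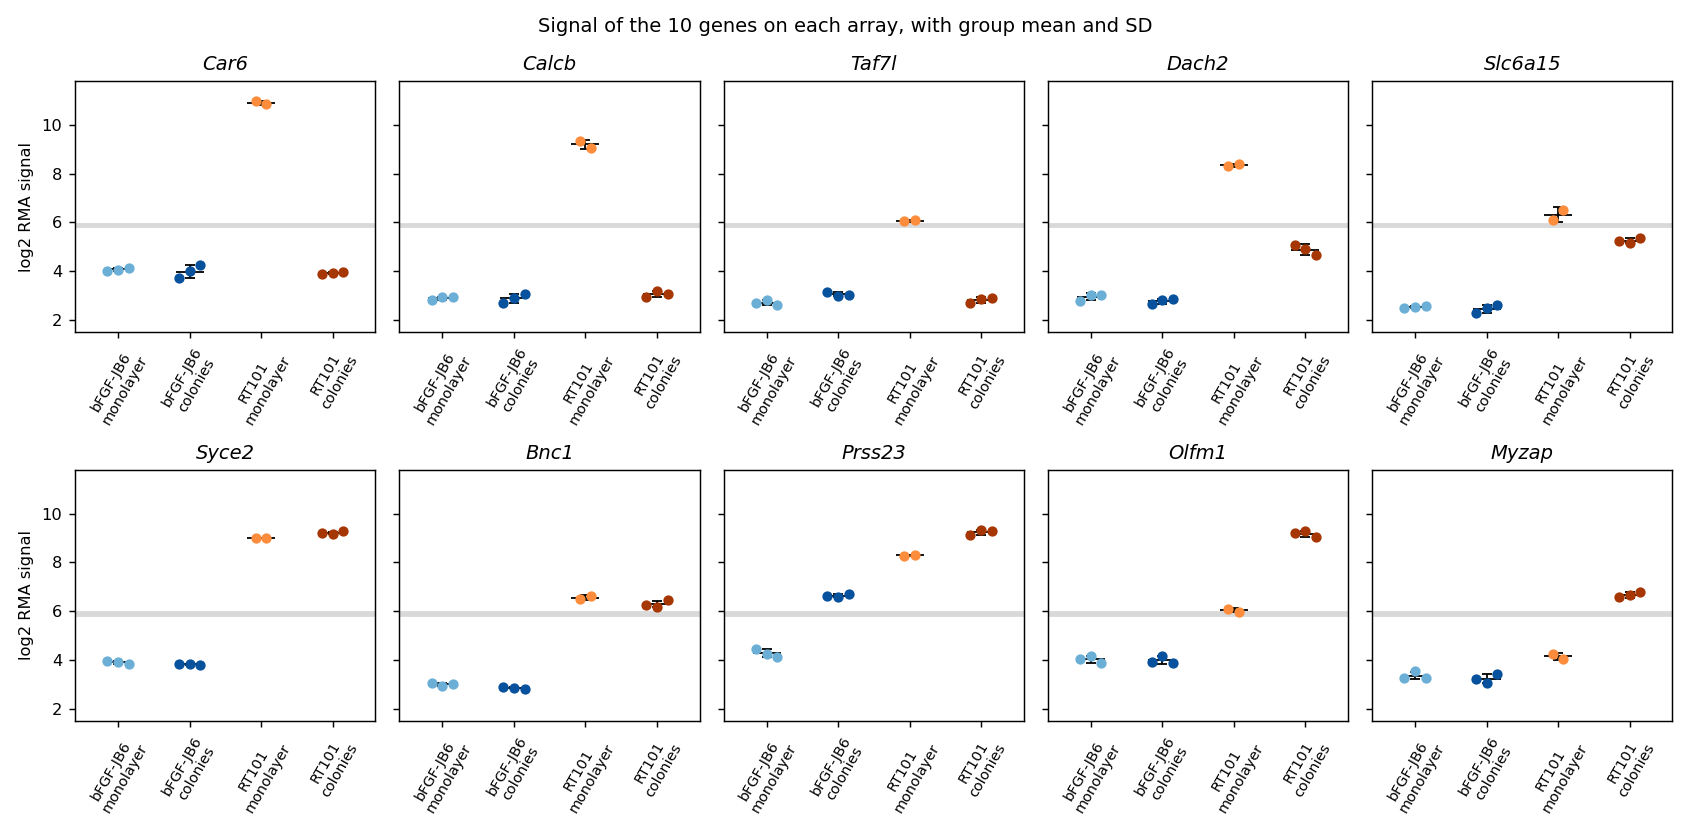
The log2 RMA signal of each of the 10 genes (1 panel each) is plotted for each of the 11 arrays by group, with the group mean (dash) and SD (bar); the grey band spans the array medians, 5.82 to 5.95. Car6, Calcb and Taf7l are high in RT101 monolayers only, whereas Syce2 and Bnc1 are high in both RT101 groups and Olfm1 and Myzap are highest in RT101 colonies.

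Syce2 (1429270_a_at), a central-element protein of the synaptonemal complex that joins paired chromosomes in meiosis, was kept. Its signals were 9.02 and 9.01 in RT101 monolayers and 9.19, 9.17 and 9.27 in RT101 colonies. Those of bFGF-JB6 were 3.97, 3.90 and 3.83 in monolayers and 3.84, 3.82 and 3.79 in colonies. The 5 RT101 arrays were all far above the 6 bFGF-JB6 arrays, by 34.6-fold in monolayers and 42-fold in colonies, and the RT101 groups differed by 0.19 (SE 0.08).

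Bnc1 (1424890_at) encodes basonuclin 1, a zinc finger protein of basal keratinocytes and germ cells. Since JB6 comes from epidermis, it belongs to another tissue than the line's own only in part. Signals were 6.49 and 6.64 in RT101 monolayers and 6.26, 6.19 and 6.44 in RT101 colonies, beside 3.06, 2.93 and 3.01 in bFGF-JB6 monolayers and 2.89, 2.86 and 2.82 in bFGF-JB6 colonies. Colonies kept 83.3% of the RT101 monolayer signal (difference -0.26, SE 0.10) and stood 10.9-fold above bFGF-JB6 colonies.

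Prss23 (1431057_a_at), a secreted serine protease of many tissues, was not limited to RT101. Signals were 8.28 and 8.30 in RT101 monolayers and 9.11, 9.32 and 9.27 in RT101 colonies, a difference of 0.95 (SE 0.11) or 1.93-fold. They were 4.45, 4.26 and 4.14 in bFGF-JB6 monolayers and 6.62, 6.60 and 6.71 in bFGF-JB6 colonies, which lay above the array medians. The lead of RT101 was 16-fold in monolayers and 6.02-fold in colonies. The other probe set (1437671_x_at) gave smaller colony differences, 0.41 in RT101 and 1.98 in bFGF-JB6; its bFGF-JB6 colony signals were 4.84, 5.94 and 6.55, highest on the array with the raised 3' signal, whose part in this was not tested.

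Olfm1 (1425784_a_at) encodes an olfactomedin glycoprotein secreted by neurons. Its signals were 6.09 and 5.98 in RT101 monolayers and 9.21, 9.29 and 9.04 in RT101 colonies, a difference of 3.14 (SE 0.12) or 8.84-fold. bFGF-JB6 monolayers gave 4.04, 4.17 and 3.86 and bFGF-JB6 colonies 3.91, 4.18 and 3.87, overlapping each other. The lead of RT101 over bFGF-JB6 was 4.03-fold in monolayers and 36.6-fold in colonies. The 2 other Olfm1 probe sets also were higher in RT101 colonies than in monolayers, by 2.89 and 2.60, but gave smaller leads in monolayers, 0.28 and 1.38. Their RT101 monolayer signals, 3.31 and 3.45, and 3.71 and 3.70, were below the lower quartiles. Olfm1 thus counts as RT101-restricted, as defined below, by its brightest probe set only.

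Myzap (1455180_at) encodes myozap, a protein of the intercalated discs that couple heart muscle cells. Its signals in RT101 monolayers, 4.26 and 4.05, were under the array medians, and those in RT101 colonies were 6.57, 6.66 and 6.79, a difference of 2.52 (SE 0.13) or 5.73-fold. bFGF-JB6 monolayers gave 3.26, 3.53 and 3.28 and bFGF-JB6 colonies 3.22, 3.04 and 3.42. It was thus mainly a gene of the RT101 colonies, 10.9-fold above bFGF-JB6 colonies but 1.74-fold above bFGF-JB6 in monolayers.

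**Figure D2:**
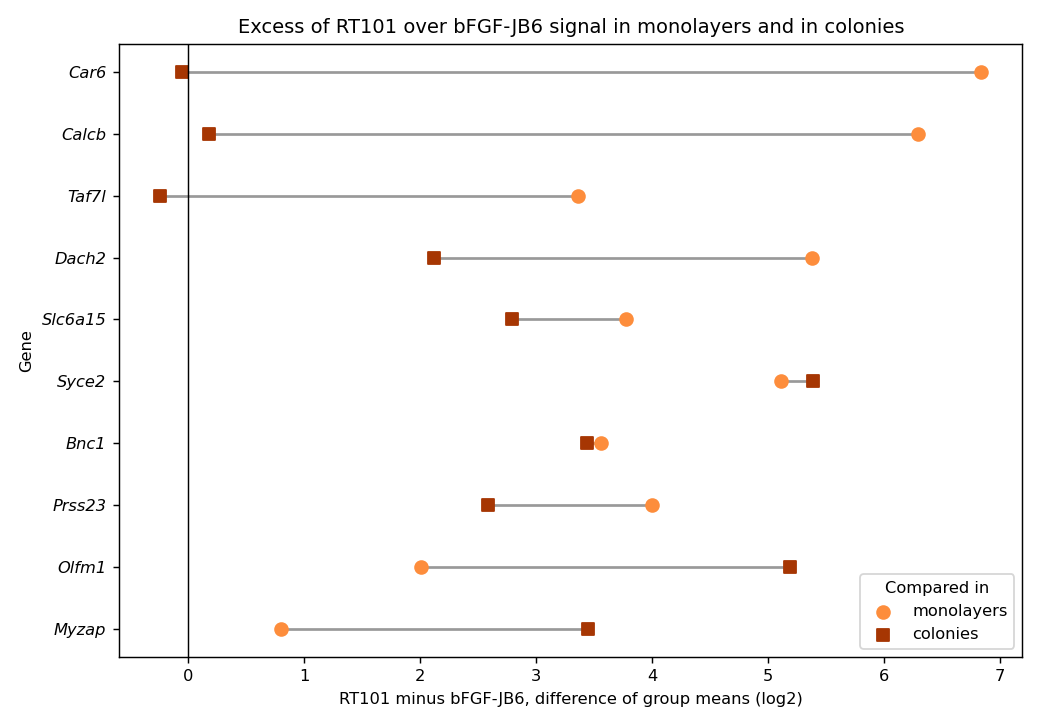
For each gene the difference between the RT101 and bFGF-JB6 group means (log2, horizontal axis) is drawn in monolayers (circle) and in colonies (square), 0 meaning equal means. The squares of Car6, Calcb and Taf7l lie at -0.05, 0.18 and -0.24, those of Syce2 and Olfm1 at 5.39 and 5.19.

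In the bFGF-JB6 cells, growth in agar raised Prss23 and, slightly, Taf7l, and the other 8 genes were not called. This contrast was not used to pick the genes, but it shares the bFGF-JB6 monolayer arrays with one that was. Prss23 went from 4.28 ± 0.16 to 6.64 ± 0.06 (SD, n = 3 each), a rise of 2.36 (SE 0.09), or 5.13-fold (limma, Benjamini-Hochberg adjusted p = 7.9e-10 over all 12393 genes). Taf7l went from 2.71 ± 0.11 to 3.06 ± 0.07 (SD, n = 3 each), a rise of 0.35 (SE 0.09, limma adjusted p = 0.01), both means being below the lower quartiles of the arrays; without bFGF-JB6 monolayer replicate 3 it was 0.30 with an adjusted p of 0.052, and it was not called. The remaining 8 changed by -0.18 to -0.02, with limma adjusted p from 0.259 for Bnc1 to 0.937 for Calcb. Of all genes 14.1% were called higher and 15.3% lower in this contrast, so 2 higher and 0 lower of 10 is a count close to the background.

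The fall of Taf7l in RT101 colonies and its rise in bFGF-JB6 colonies ran in opposite directions on every array. For Prss23 the colonies were higher in both lines. Olfm1, with a bFGF-JB6 change of -0.04 (adjusted p = 0.844), and Myzap, with -0.13 (adjusted p = 0.463), were higher in colonies by 3.14 and 2.52 in RT101; the RT101 values are those on which the genes were picked.

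How many genes behave like the 10 was counted over the whole array. A gene was taken as RT101-restricted where both RT101 monolayer arrays lay above their array median, all 6 bFGF-JB6 arrays lay below theirs and the RT101 monolayer mean was at least 2 log2 units above the higher bFGF-JB6 group mean. There were 32 such genes, 8 of them among the 10; Myzap was too low in RT101 monolayers and Prss23 too high in bFGF-JB6 colonies. A restricted gene was lost where its colony arrays lay below the array medians after a fall of over 1, and kept where they lay above them with a fall of less than 1. Of the 32, 12 (37.5%) were lost, 14 (43.8%) were kept and 6 met neither definition; all 6 were lower in colonies than in monolayers. These counts depend on the definition. With the lower quartile as the bound for off there were 5 restricted genes, 2 lost and 1 kept, and with a difference of 1 in place of 2 there were 87, 23 lost and 47 kept. The 24 that are not among the 10 split into 7 lost, 11 kept and 6 in between, with a median change of -0.93, from -4.63 to 1.59. The choice of restricted genes and their change in agar share both RT101 monolayer arrays, which favours falls, so these shares are no test. Over the whole array, 456 of 660 genes called at least 2-fold higher in RT101 than in bFGF-JB6 monolayers (69.1%) fell in RT101 colonies.

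Beside Car6, Calcb, Syce2 and Dach2, the restricted genes with the highest RT101 monolayer signals were Ptx3, U90926, Rif1, Ccn1, Dennd11 and Celf2. Ptx3, a pentraxin of innate immunity, was the one most like Car6, at 9.43 in RT101 monolayers and 4.80 in RT101 colonies. U90926 (8.70 to 5.93), Rif1 (8.61 to 6.97), Ccn1 (8.35 to 6.37) and Celf2 (7.96 to 6.63) were in between, and Dennd11 (8.16 to 7.62) was kept. Over all 32 genes, 9 ended within 1 log2 unit of the bFGF-JB6 colony mean, as Car6, Calcb and Taf7l did.

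**Figure D3:**
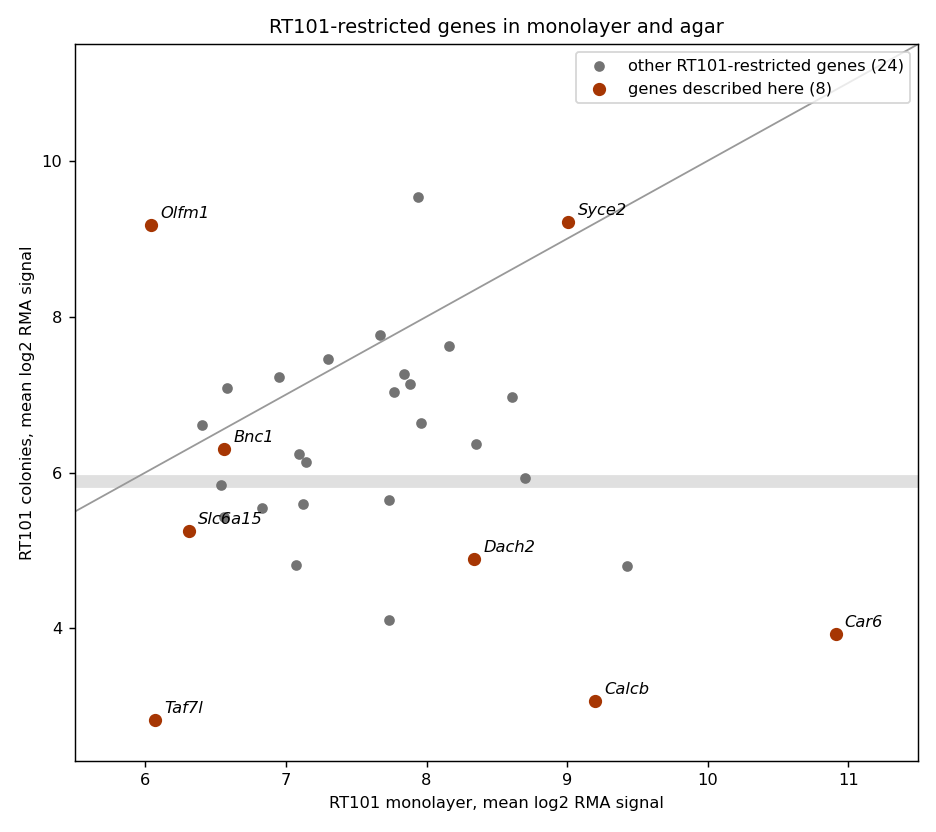
Each point is one of the 32 RT101-restricted genes, with its mean log2 RMA signal in RT101 monolayers (horizontal, n = 2) and RT101 colonies (vertical, n = 3); the line marks equal signals and the grey band the array medians. Car6, Calcb and Taf7l lie at the bottom with colony means of 3.93, 3.07 and 2.82, Syce2 lies close to the line and Olfm1 far above it at 9.18.

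Over the 11 arrays the 10 genes fell into sets with like patterns, given as Pearson's r without a test, since the arrays form 4 groups and the r largely restates the group means. Car6 and Calcb correlated at 0.998, and Taf7l with each of them at 0.99. Syce2 and Bnc1 correlated at 0.996 and Olfm1 and Myzap at 0.986, while Car6 and Olfm1 gave 0.0369. These sets do not match the split into lost and kept genes. Slc6a15, lost by the definition, correlated with the kept Bnc1 at 0.984 and Syce2 at 0.968. With the lost Dach2 it gave 0.928 and with the lost Car6 0.676. The genes most like Car6, after Calcb, were the serine synthesis gene Psph (0.997) and the protease inhibitor gene Serpinb2 (0.996); Calcb shared Psph (0.997) and had Wdr43 (0.995). Nearest to Taf7l were Utp18 (0.996), Angptl6 (0.992) and Rabggtb (0.991), and to Dach2 Dgat2, Qtrt1 and the prostaglandin synthase gene Ptgs2 (0.991 each). Slc6a15 was followed by Prps1 and Emp2 (0.995 each) and by the testis helicase gene Ddx25 (0.992). Syce2 had Dusp22 and Apool, and Bnc1 had Fancl (0.995) and Apool (0.994). Olfm1 was nearest to the sterol synthesis gene Msmo1 (0.996), and both Olfm1 and Myzap had Pcdhb22 and Dock8 among their closest 3. Prss23 was nearest to the chemokine gene Cxcl10 (0.992), Ube2e3 (0.988) and Bnip3 (0.986). Such correlations are common here: between 57 and 244 of the 12392 other genes passed 0.95, depending on the gene.

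The relatives of the 10 genes were mostly low. Of 191 measured relatives and pathway partners, in 12 lists that leave the 10 genes out, 130 were below the array median on every array. In monolayers 40 of them (20.9%) were higher in RT101 and 21 (11%) lower, against 23.2% and 21.2% of all genes, with medians of 0.09 for the relatives and 0.05 for all genes. In RT101 colonies against monolayers 17 (8.9%) rose and 23 (12%) fell, against 17% and 15.4% of all genes, with medians of -0.05 and -0.01. With every array centred on its median, the counts were 53 and 13 in monolayers and 13 and 37 in agar, so that the share of higher calls went from 65.6% to 80.3% and from 42.5% to 26.0%. For all genes it went from 52.3% to 61.0% in monolayers and from 52.4% to 40.1% in agar, as centring moved the median of all genes to 0.14 in monolayers and -0.10 in agar. With cyclic loess the monolayer counts were 29 and 25 (53.7% higher).

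Beside the percents of each list below stand the shares of all genes, 23.2% higher and 21.2% lower in monolayers. In RT101 colonies these shares were 17% and 15.4%. Among the families of the lost genes, the 15 other carbonic anhydrases had 13 below the array medians throughout. In monolayers 1 of them (6.67%) was higher and 1 (6.67%), Car13, was lower (-2.02, SE 0.12, limma adjusted p = 1.51e-08). In RT101 colonies 3 rose (20%), Car5b by 1.40, and 0 of them fell. In the calcitonin family 3 of 8 (37.5%) were higher in RT101 monolayers and 1 (12.5%) lower. Adm, which encodes the vasodilator peptide adrenomedullin, was 14.3-fold higher (3.84, SE 0.18, limma adjusted p = 1e-09). Unlike Calcb it kept most of this in agar, falling by 0.58 (adjusted p = 0.0224). The shared receptor gene Calcrl was higher by 1.16 and rose by a further 1.0 in agar, and the receptor partner gene Ramp3 was lower by 1.67 in monolayers.

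The TFIID list, around Taf7l, had 3 of 10 (30%) higher and 2 (20%) lower in monolayers, and 0 that rose and 3 (30%) that fell in agar. Tbpl1, the TATA-binding protein relative needed for spermatid development, moved like Taf7l: it was higher by 1.75 (SE 0.10, adjusted p = 7.12e-09) in RT101 monolayers and changed by -2.26 (SE 0.10, limma adjusted p = 1.69e-09) in RT101 colonies. Unlike Taf7l it lay above the array medians in every group, at 8.55 in bFGF-JB6 and 10.30 in RT101 monolayers. In the network of Pax, Eya and Dach factors around Dach2, 1 of 13 (7.69%) was higher, Six5 (0.33), and 1 (7.69%) lower, Pax3 (-0.29). With cyclic loess these counts were 0 and 2. In agar Six4 rose by 0.67. Among 14 SLC6 transporters, the glycine transporter gene Slc6a9 was higher by 1.92 (SE 0.09, adjusted p = 8.64e-10) and changed in agar by -1.41 (SE 0.09, limma adjusted p = 4.92e-08); Slc6a8 was lower by 0.66 and Slc6a6 rose in agar by 0.48.

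Partners of Syce2 and Bnc1 were mostly low. Of 14 other genes of the synaptonemal complex and meiotic recombination, 13 were below the array medians on every array. Stag3, a meiotic cohesin subunit, was higher by 0.66 and fell in agar by 0.43. It was 1 of 2 genes (14.3%) higher in monolayers, and 1 (7.14%) was lower. Among 46 other germ-line genes 41 were below the medians throughout. In monolayers 9 (19.6%) were higher and 3 (6.52%) lower, and in agar 2 (4.35%) were up and 3 (6.52%) down. With median centring these counts were 12 and 2, and 2 and 8. Dppa2 (0.96 in monolayers, -0.78 in agar), Haspin (0.86 and -0.77), which cells also use in mitosis, and Dppa4 (0.72 and -0.49) were higher in RT101 and then fell. Brdt, a testis bromodomain gene, went the other way (-0.72 and 0.59), and Rhox5 rose in agar by 0.64. In the basal keratinocyte list, around Bnc1, 14 of 16 were below the medians. In monolayers 1 (6.25%) was higher and 3 (18.8%) lower (2 and 1 with median centring). In agar 2 (12.5%) fell, Dst by 1.22 and Itga6 by 0.61.

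Of 4 other olfactomedin genes, 2 (50%) were lower and 0 higher in RT101 monolayers (1 and 1 with median centring), and 3 (75%) rose in RT101 colonies. These were Olfml2b, by 2.80 (SE 0.14, limma adjusted p = 6.88e-09), Olfml3, by 2.25 (SE 0.14, adjusted p = 5.47e-08), and Adgrl1, by 0.64. The same 3 genes also rose in bFGF-JB6 colonies, by 0.42, 1.12 and 0.57, where Olfm1 changed by -0.04. In monolayers, where Olfm1 was higher in RT101, Olfml3 changed the other way (-1.80). Among 16 genes of the intercalated disc, around Myzap, 4 (25%) were higher and 2 (12.5%) lower in monolayers. In agar 2 (12.5%) rose and 1 (6.25%) fell. The gap junction gene Gja1 rose by 0.66 and Fhl2 fell by 0.82. Among 13 PRSS and HTRA proteases, around Prss23, 3 (23.1%) were higher and 3 (23.1%) lower in monolayers. In agar 2 (15.4%) rose and 2 (15.4%) fell. Htra1 was higher by 1.61 and then changed by -0.85, and Htra3 was lower by 1.57 and then rose by 0.88.

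Genes of DNA methylation and of the repression of germ-line and tissue genes were listed too; not all of them are repressors (Tet1 and Mbd4, for example). Of 22, 12 (54.5%) were higher and 1 (4.55%) lower in RT101 monolayers, against 23.2% and 21.2% of all genes (medians 0.38 and 0.05). They included the chromatin remodeller gene Hells (2.03), the Polycomb methyltransferase gene Ezh2 (1.25), the methyl-CG reader gene Mbd1 (1.16) and Pcgf6 (0.96), a Polycomb subunit that represses germ-line genes. In RT101 colonies 1 rose (4.55%) and 8 fell (36.4%), against 17% and 15.4% of all genes, with a median of -0.18; Hells fell by 1.09, Pcgf6 by 0.80 and the DNA methyltransferase gene Dnmt3a by 0.50. In bFGF-JB6 colonies the counts were like these, 1 up and 7 down (31.8%, against 15.3% of all genes), but the genes were partly others. Hells (-0.65), Mga (-0.57), Ezh2 (-0.54) and Suz12 (-0.54) were called lower in the colonies of both lines. The largest falls in bFGF-JB6 colonies were those of Uhrf1 (-1.18) and Mbd4 (-1.05). In RT101 colonies Uhrf1 was the gene that rose (0.37), and Mbd4 changed by 0.04. Median centring gave 14 higher and 0 lower in monolayers and 0 up and 9 down in agar, and cyclic loess 11 and 1, and 1 and 8, all for RT101.

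Most markers of the tissues in which these genes are best known were low. All 9 measured germ cell markers (Ddx4, Dazl and others), all 10 of cardiac muscle and all 8 of endothelium were below the array median on every array, as were 8 of 9 salivary and 8 of 10 neuronal markers. The salivary exception, Aqp5, was lower in RT101 (5.16 in monolayers and 5.18 in colonies) than in bFGF-JB6 monolayers (6.14). Of the neuronal exceptions, Gap43 had 7.93 in bFGF-JB6 monolayers and 3.75 in RT101 monolayers. Tubb3 moved in the direction of Calcb, from 4.93 in bFGF-JB6 monolayers to 6.07 in RT101 monolayers (difference 1.14) and 5.19 in RT101 colonies (change -0.88). Unlike Calcb (-0.02), it also fell in bFGF-JB6 colonies (-0.61, limma adjusted p = 0.0227). The difference between its colony changes was not called (-0.27, limma adjusted p = 0.543). The part of Tubb3 in the Calcb result was not tested. The summed germ cell markers lay between 6.72 and 6.94 in bFGF-JB6 monolayers and 6.81 and 7.0 in bFGF-JB6 colonies. In RT101 they lay between 6.95 and 7.07 in monolayers and 6.83 and 7.01 in colonies. RT101 monolayers thus lay just above bFGF-JB6 monolayers without overlap, whereas both RT101 groups overlapped the bFGF-JB6 colonies. Of the 9 germ cell markers 1, Prm1, was called higher in RT101 monolayers (0.37, limma adjusted p = 0.0267), where 23.2% of all genes were. Keratinocyte markers, 7 of 9, were also below the medians in these cells of epidermal origin, whereas 1 of 10 fibroblast markers was. The summed fibroblast markers, 14.23 to 14.28 in RT101 monolayers, were 14.92 to 14.96 in RT101 colonies, where Olfm1 and Myzap were high. In bFGF-JB6, where Olfm1 and Myzap were low, they were 14.70 to 14.73 in monolayers and 14.80 to 14.91 in colonies. Macrophage markers, with 7 of 10 below the medians, summed to 8.16 to 8.17 in RT101 monolayers and 8.39 to 8.50 in RT101 colonies. In bFGF-JB6 they were higher, at 9.25 to 9.28 in monolayers and 9.69 to 9.80 in colonies.

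Genes flanking the 10 on the chromosomes were examined as well. They were taken by order among the measured genes, without a limit of distance, so "near" below does not mean close in bases. For the 5 nearest measured genes on each side, 99 distinct genes, 30 (30.3%) were higher and 22 (22.2%) lower in RT101 than in bFGF-JB6 monolayers, against 23.2% and 21.2% of all genes. At 2-fold, 8 were higher and 9 lower. In RT101 colonies against monolayers 23 of the 99 (23.2%) rose and 14 (14.1%) fell, against 17% and 15.4% of all genes (17 and 19 with median centring). Of the 8 that were 2-fold higher in monolayers, 5 fell in RT101 colonies and 1 rose. Both contrasts share the RT101 monolayer arrays, and over the whole array 456 of 660 genes called 2-fold higher there (69.1%) fell in RT101 colonies and 47 (7.12%) rose.

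Slc25a33, near Car6, was higher by 1.99 and then changed by -2.32; Rras2, near Calcb, was higher by 1.86 and changed by -2.16. Timm8a1, adjacent to Taf7l, was higher by 1.91 and changed by -1.76, and Cep290, near Slc6a15, was higher by 1.35 and changed by -1.16. Stard5, near Bnc1, was higher by 1.05 and changed by -2.03, while Bnc1 itself was kept, and Sh3gl3 on the same side was higher by 1.45. Apool (1.17), among the 5 before Dach2, and Tspan6 (1.13) were higher too. Tspan6 was among the 5 after Dach2 and the 5 before Taf7l. The first promoter windows of Dach2 and Taf7l start at 113297260 and 134476441 on chromosome X, so Tspan6 is not close to both.
Lower neighbours lay among the same genes: Tnfrsf9 (-3.98), Spsb1 (-2.68) and H6pd (-1.40) near Car6, Armcx4 (-2.54) and Srpx2 (-1.29) near Taf7l, and Diaph2 (-1.22) near Dach2. Cgnl1 (-2.26), near Myzap, Ralgds (-1.82), near Olfm1, and Dnase2a (-1.44), near Syce2, completed them.

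**Figure D4:**
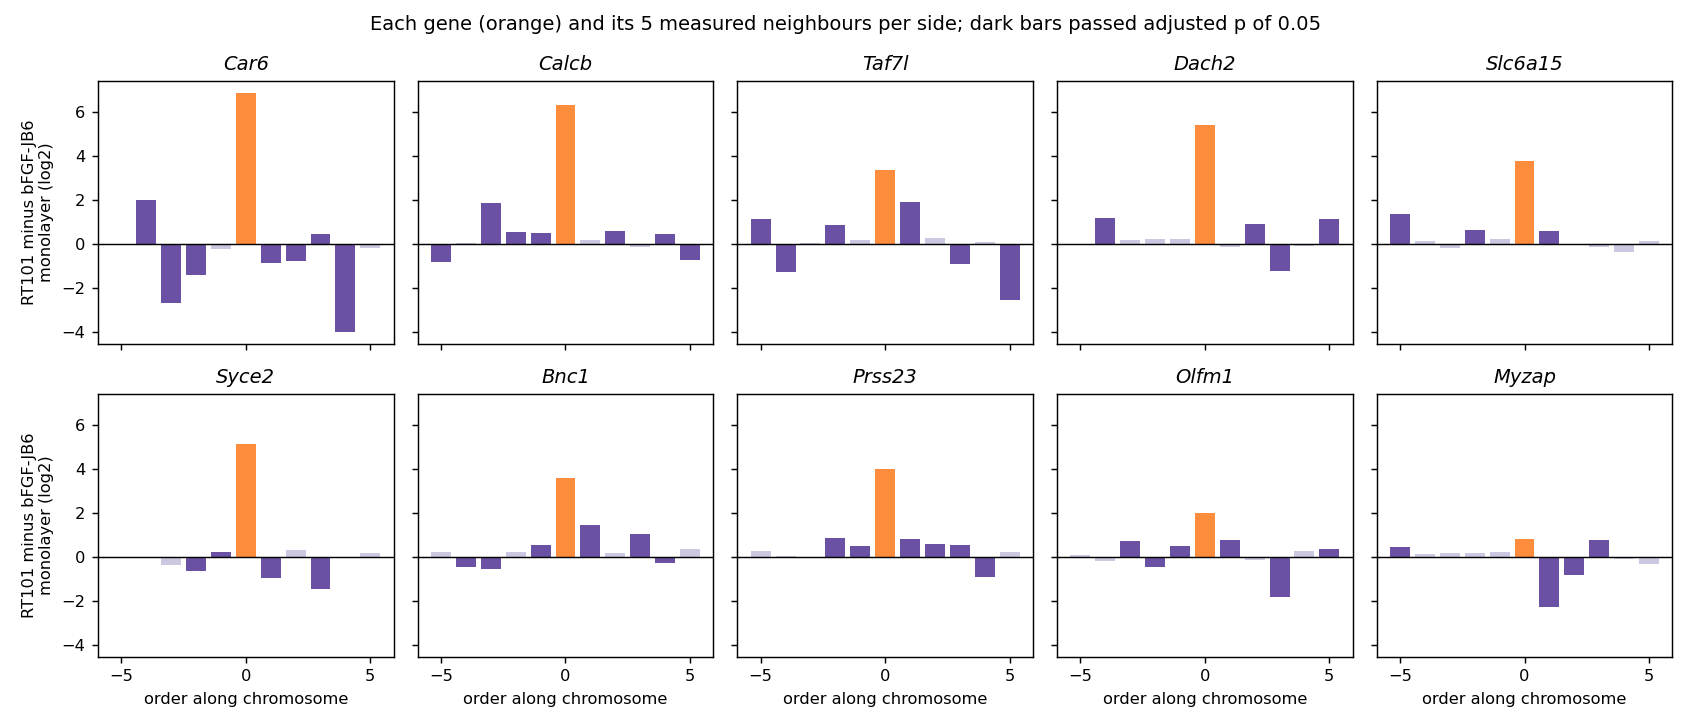
For each of the 10 genes (orange bar at 0) and its 5 measured neighbours on each side in chromosomal order, the RT101 minus bFGF-JB6 monolayer difference (log2) is drawn; dark bars are neighbours that passed a limma adjusted p of 0.05 and pale bars did not. Around Car6 the neighbours run from -3.98 to 1.99 beside 6.84 for Car6.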

How the data were processed

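Total RNA was labelled and hybridised to Affymetrix arrays, 1 sample per array, 11 in all; groups came from titles and source names. The values the authors deposited are log2 signals of probe sets from RMA, which the submitters' processing notes name without a version. RMA equalises the distributions of the arrays, makes no detection calls and understates folds of weak signals; its values were used unfiltered. Precision is limited by the number of arrays. Of 22690 probe sets, 20380 named 1 gene, 691 several and 1555 none, and 64 were controls; 20351 of the single-gene ones were found in the reference gene table. For each of 12393 genes the brightest single-gene probe set was used.

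Group means were compared with limma 3.58.1 in R 4.3.3 (all 11 arrays, group as the only term, 7 residual and 6.12 prior degrees of freedom; two-sided, Benjamini-Hochberg over all genes, called at 0.05). SE is limma's moderated standard error on the log2 scale. The procedure was tested on simulated data. The 10 genes and all lists were chosen with earlier results of these data known. Named beside the 10 genes were up to 4 called genes per list, by size of change, neighbours called at 2-fold, the 3 genes of highest correlation per gene and the 10 restricted genes of highest RT101 monolayer signal. Deviations of arrays with the same replicate number in the titles correlated at -0.34 to 0.32 (median 0.01), which showed no pairing by number. For arrays with the same letter in the descriptions they correlated at -0.28 to 0.32 (median 0.11), beside -0.34 to 0.34 (median -0.04) for unlike letters. Alternatives were median centring, cyclic loess, the mean of probe sets, a level filter, other variance models, a replicate block, other bounds and leaving out each array; omitting both arrays of raised 3' signal was chosen after seeing the data. Figures were made with Python 3.11.15 and matplotlib 3.10.9.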

Additional observations from a re-analysis of the deposited data

Results flagged for a closer look

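Taf7l changed in opposite directions in the colonies of the 2 lines, on every array: its change in RT101 colonies minus that in bFGF-JB6 colonies was -3.60. The RT101 change was among the values on which the gene was picked, so this difference was not tested.

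Among the relatives of the 10 genes, limma's test of the difference between the colony changes (RT101 minus bFGF-JB6, log2, Benjamini-Hochberg over all genes) passed an adjusted p of 0.05 for 22 of 34 genes. These 34 had been named for a called change in RT101 colonies, which is one side of the difference, so their count is not evidence: 58.7% of all 4013 genes called there passed too, and 27.7% of all genes. For families of the lost genes the differences were 2.38 for Car5b, 0.80 for Car13, 0.68 for Calcrl, -0.64 for Crcp, 1.64 for Ramp3, 1.44 for Six4, -2.25 for Tbpl1, -0.65 for Taf8 and -2.45 for Slc6a9. Slc6a9 rose in bFGF-JB6 colonies (1.04) and fell in RT101 colonies (-1.41; limma adjusted p of the difference 9.86e-09), and Tbpl1 was flat in the former (-0.01, adjusted p of the difference 5.15e-08). Among germ-line genes they were -0.82 for Dppa2, 0.85 for Haspin, 1.38 for Rhox5 and 1.06 for Brdt. Around the kept genes they were 2.37 for Olfml2b, 1.13 for Olfml3, 1.64 for Gja1, 0.47 for Jup, 1.17 for Itga6, 0.90 for Htra3 and 1.35 for Prss22. Among repressors they were -0.70 for Pcgf6 and -0.78 for Dnmt3a.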

How the results depend on the processing

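Over 764 alternatives for single values of the 10 genes, 753 kept size and call, 10 moved by more than the spread between replicates without a change of sign, and 1, the bFGF-JB6 change of Taf7l, lost its call (0.30 without bFGF-JB6 monolayer replicate 3). Many of these alternatives leave out an array from a group that the value does not use. Its size could not move there, so the tally overstates stability. With probe sets averaged, Olfm1 differed by 2.88 in RT101 colonies against monolayers and 1.22 in monolayers, and Prss23 by 0.68 and 4.28. Of 245 alternatives for counts, 228 stayed within 1.5 times. Some of these were also fixed in advance, since the lost and kept counts of the 10 genes use RT101 arrays only. With only genes at or above the median level, 1 of the 10 genes was called higher in bFGF-JB6 colonies, and the relatives gave 20 higher in RT101 monolayers and 10 higher and 15 lower in RT101 colonies, fewer genes being tested. With median centring 13 relatives were lower in monolayers and 37 lower in RT101 colonies. With the lower quartile as the bound for off, 2 of the 10 genes were lost and there were 5 restricted genes, 2 lost and 1 kept; with a difference of 1 in place of 2 there were 87, 23 lost and 47 kept. Leaving out each array gave 1 to 2 of the 10 genes higher in bFGF-JB6 colonies, 13 to 24 relatives lower in monolayers (13 without bFGF-JB6 monolayer replicate 2 or replicate 3) and 11 to 21 higher in RT101 colonies (11 without RT101 monolayer replicate 2). The cause of these moves was not tested. With the replicate block from the titles, the relatives gave 37 higher and 20 lower in monolayers and 19 higher and 25 lower in RT101 colonies, and 2 of the 10 genes were higher and 0 lower in bFGF-JB6 colonies; with letters from the descriptions these were 32, 16, 16, 23, 2 and 0.
Signals near the bottom of the scale limit what can be said of relatives below the array medians, and RT101 monolayers rest on 2 arrays.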
